A study of Sus scrofa with 32 samples.

Results

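CTSW-high CD8 T cells of the porcine ileum were chosen by transcript counts of single cells: a member carried at least 1 UMI (unique molecular identifier, 1 captured transcript) of CD3E and of CD8B, at least 2 of CTSW and more of CTSW than of GZMB, and none of TRDC, CD79B, TOP2A or EPCAM. Of 35386 ileal cells that passed filters on depth and mitochondrial transcripts (48629 with blood), 452 were members. They were part of 2200 ileal CD8 T cells, meaning cells that met the same conditions on CD3E, CD8B, TRDC, CD79B, TOP2A and EPCAM. The study dissected the distal ileum of 2 mixed-breed pigs, a female pig 1 and a male pig 2 of 7 weeks by the labels, into pieces that held Peyer's patches (PP), pieces that excluded them (non-PP) and a complete cross section (whole ileum), and collected peripheral blood mononuclear cells (PBMC) from the same pigs. No group was treated. Ileal cells came from the epithelium together with the layers beneath it and were enriched for leukocytes, so that the epithelial and the lamina propria compartment were measured together. Each pig and tissue gave 1 library, with 21134542 to 40111934 UMIs in all its barcodes.

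CD8 αβ T cells recognise peptides on MHC class I, and their CD8 coreceptor is made of the chains encoded by CD8A and CD8B. In gut they lie mostly in and under the epithelium, where CCR9, the receptor for the intestinal chemokine CCL25, guides their entry, and CD103 (ITGAE), which binds E-cadherin of epithelial cells, helps to hold them. CTSW encodes cathepsin W, a cysteine protease of cytotoxic lymphocytes. GZMB encodes granzyme B, the granule protease that kills target cells. The sequences of these transcripts were not analysed here. In the Sscrofa11.1 annotation of RefSeq, CTSW lies at chr2:6446105-6450357, CD8B at chr3:57968358-57986450, CCR9 at chr13:29033609-29051227 and XCL1 at chr4:82432845-82436150.

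The library labelled whole ileum pig 1 went against its label. Transcripts of 4 Y-linked genes reached 207 CPM (a gene's UMIs scaled to a common total for each sum of cells) in its kept cells, against 0.161 and 0.224 CPM in the PP and non-PP libraries of the same, female-labelled pig and 185 to 226 CPM in the ileal libraries of the male pig. For genes described below whose call changed when this library was left out, the edgeR adjusted p without it is therefore given as well. No member barcode was found in more than 1 ileal library, while 20 member barcodes were also kept in another library, and pairs of libraries shared 21 to 80 kept barcodes, where draws at random from all barcodes would share up to 76.7.

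The genes of the rule are given as values only, because they chose the cells. Members carried a median of 7 UMIs of CTSW (range 2 to 23), 1.5 of GZMB, 1 of CD8B and 4 of CD3E, and GZMB was at 0 in 110 of the 452. In the summed UMIs of each library, CTSW stood at 2033 and 1840 CPM in PP, 1941 and 1932 CPM in non-PP and 1949 and 2143 CPM in whole ileum (pig 1 first, here and below). At the edge of the rule, 19 members had exactly 2 CTSW UMIs, with 79.5 CPM of CCR9 and 954 CPM of XCL1, and the 8 cells just outside it, with 1 CTSW UMI and no GZMB, had 289 CPM of CCR9 from 7 UMIs and 703 CPM of XCL1. Members with 1 more UMI of CTSW than of GZMB numbered 59, with 146 CPM of CCR9 and 1077 CPM of XCL1, and the 49 cells with equal counts had 150 and 2783 CPM.

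The label was checked against other T cell genes and markers of other cells. CD8A had 653 to 811 CPM in the 6 libraries, CD3G 1065 to 1246 CPM, CD3D 323 to 422 CPM and CD2 676 to 899 CPM, and 86.5% of members had a UMI of CD8A and 0.442% one of CD4. CCR9, the third marker given with the cells, was found in 43.8% of members, against 1.33% of ileal B gate cells (cells with CD79B, which should lack it). After every cell was thinned to 1250 UMIs, these shares were 18.4% and 0.423%. Among 15 epithelial genes, 13 were named in the files, and their summed level in members was 86.6 to 1708 CPM. FABP6, a bile acid-binding protein of ileal enterocytes, was the most abundant with 69.3 to 1497 CPM, while VIL1 was at 0 in all 6 libraries. The 14 myeloid genes summed to 76.7 to 264 CPM in 5 libraries and to 2316 CPM in whole ileum pig 2, where 343 of 374 UMIs of their most abundant gene, CST3, came from 1 member. FLT3, XCR1, S100A8 and S100A9 were at 0 throughout. Of the 11 B lineage genes, 2 to 9 had a UMI in the members of a library, fewest in non-PP pig 2 and most in PP pig 1. CD180 was at 0 in all 6 libraries, and PAX5 was at 0 in 5. The 9 antibody-secreting cell genes summed to 702 to 1208 CPM, mostly SSR4, with TNFRSF17 at 0. Among 10 stromal and mast cell genes, KIT led in 5 libraries, and COL1A1, COL1A2, DCN, LUM, VWF and HDC were at 0. The part that such transcripts from other cells had in the comparisons was not tested.

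By number, the most abundant named transcripts that were neither ribosomal nor mitochondrial were TMSB4X (24646 CPM as a mean of the sums per pig), CCL5 (19690 CPM), TMSB10 (15377 CPM), B2M (8961 CPM) and TPT1 (6862 CPM). CCL5 is a chemokine that memory and effector CD8 T cells store. It ranged from 13613 CPM in PP pig 2 to 29149 CPM in non-PP pig 1. Next came PTMA, IFI6, HSD11B1L, KXD1, CD52, UBB, ACTG1, ACTB, H3F3B and CD74, the last with 2400 CPM. CD74 is the invariant chain of MHC class II.

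The first question was where in the ileum members were found. They made up 1.17% (95% Clopper-Pearson interval 0.939 to 1.45) and 0.771% (0.578 to 1.01) of kept cells in PP, 2.97% (2.46 to 3.55) and 1.96% (1.54 to 2.45) in non-PP, and 1.19% (0.929 to 1.51) and 0.701% (0.527 to 0.914) in whole ileum. These counts were 86, 53, 116, 74, 69 and 54 cells. Intervals cover counting error only. Both non-PP shares lay above both PP shares. The mean was 0.972% ± 0.283 (SD, n = 2) in PP and 2.46% ± 0.713 (SD, n = 2) in non-PP, a difference of -1.49 percentage points (two-sided exact permutation test, p = 0.333, which is the smallest p that 2 against 2 libraries can give). B gate cells made up 44.9% and 47.8% of kept cells in PP against 0.435% and 1.24% in non-PP, and so moved with the denominator. As a share of CD8 T cells, members were 41.3% and 19.8% in PP, 21.1% and 15.2% in non-PP and 16.0% and 21.0% in whole ileum. On this scale the PP mean of 30.6% ± 15.3 (SD, n = 2) was above the non-PP mean of 18.2% ± 4.20 (SD, n = 2), the dissections overlapped, and the difference of 12.4 points gave p = 0.667 (two-sided exact permutation test). Within each pig the PP share was above the non-PP share, which this unpaired test does not use. Members needed more CTSW than GZMB UMIs, and the GZMB background differed between dissections. Barcodes of few UMIs had 2068 and 2974 CPM of GZMB in PP against 6288 and 11373 CPM in non-PP. Their CTSW was 232 and 212 against 392 and 310 CPM. B gate cells had 85.1 and 146 CPM of GZMB in PP against 235 and 890 CPM in non-PP. How far free GZMB RNA moved either share of members was not tested. Blood held 134 and 29 cells that met the same rule, 2.08% and 0.426% of kept PBMC. The pig 1 blood share was 36.3% of CD8 T cells and the pig 2 share 4.93%.

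**Figure D1:**
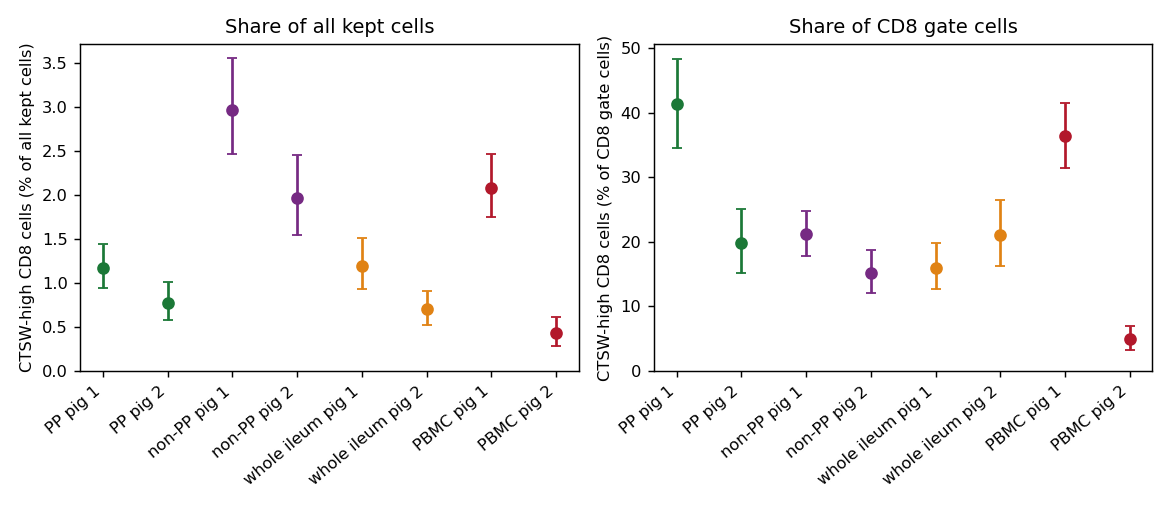
Share of CTSW-high CD8 T cells in each library, as a percent of all kept cells (left) and of CD8 T cells (right), with points for libraries and bars for 95% Clopper-Pearson intervals. The non-PP points are the highest of the ileal points at left (2.97% and 1.96%), while at right PP pig 1 is the highest (41.3%).

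Members were next compared with the other large group of ileal CD8 T cells, those with at least 2 GZMB UMIs and more GZMB than CTSW (1665 GZMB-high CD8 T cells). The rule thus set CTSW and GZMB apart between these groups, and all other genes were tested on raw counts summed per pig (edgeR quasi-likelihood test, Benjamini-Hochberg adjustment over 7556 genes, n = 2 pigs). Of these genes 8 (0.106%) were higher and 11 (0.146%) lower in members. With the pig as a block, since both groups came from the same animals, 88 (1.16%) were higher and 66 (0.873%) lower, and the 8 and 11 were among them. Without whole ileum pig 1 the counts were 6 and 7. Median depth was 2916 to 3511.5 UMIs per member cell over the 6 libraries and 1964.5 to 2592 per GZMB-high cell.

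XCL1 and CCR9 were higher in members. CCR9 was a marker given with these cells, which were chosen with earlier results of these data known, so its test is not independent. XCL1, a chemokine that attracts XCR1-bearing cross-presenting dendritic cells, had 614 and 1072 CPM in PP, 1522 and 1715 CPM in non-PP and 1679 and 1762 CPM in whole ileum. In GZMB-high CD8 T cells it had 225 to 523 CPM, and the groups did not overlap. The log2 fold change was 1.93 (SE 0.18, edgeR adjusted p = 0.000317). CCR9 had 205 and 131 CPM in PP, 206 and 194 CPM in non-PP and 206 and 133 CPM in whole ileum. In GZMB-high cells it had 66.3 to 102 CPM, below every member library, with a log2 fold change of 1.27 (SE 0.18, edgeR adjusted p = 0.00883). When cells were thinned to equal depth, the CCR9 difference was 1.05 with an edgeR adjusted p of 0.0918.

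TCF7 encodes TCF-1, a transcription factor of naive and memory T cells that keep the ability to divide. Its level in members was 315 and 327 CPM in PP, 217 and 302 CPM in non-PP and 323 and 271 CPM in whole ileum, above the 48.9 to 166 CPM of GZMB-high cells. The log2 fold change was 1.39 (SE 0.16, edgeR adjusted p = 0.00112, or 0.0526 without pig 2). Here and below, fits that leave out a pig were made on sums per library. Their p measures the spread between libraries labelled as the remaining pig and is no test between animals. Fits without pig 2 kept the library labelled whole ileum pig 1. Of the 13 tested genes of naive and recirculating T cells, TCF7 was the one that passed, and none fell. The list's median log2 fold change was 0.03 (0.39 with a gene at 0 on one side set to its bound), beside 0.00 over all tested genes. NAPSA, which encodes the aspartic protease napsin A, had 67.3 to 102 CPM against 2.72 to 31.5 CPM (log2 fold change 2.21, SE 0.25, edgeR adjusted p = 0.000963).

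MFAP5, which encodes an extracellular microfibril glycoprotein, was higher in members. It had 42.8 and 21.8 CPM in PP, 94.9 and 52.5 CPM in non-PP and 88.8 and 34.7 CPM in whole ileum, against 0 to 14.4 CPM in GZMB-high cells (log2 fold change 3.41, SE 0.44, edgeR adjusted p = 0.00542). Without whole ileum pig 1 its edgeR adjusted p was 0.136. B gate cells had 0 to 0.854 CPM of MFAP5, CTSW-high γδ T cells 106 to 207 CPM and barcodes of 1 to 50 UMIs at most 15.2 CPM in ileum. A UMI of MFAP5 was found in 55 members, 12.2% of them, and in 1.02% of GZMB-high cells, or in 4.42% and 0.721% at equal depth.

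**Figure D2:**
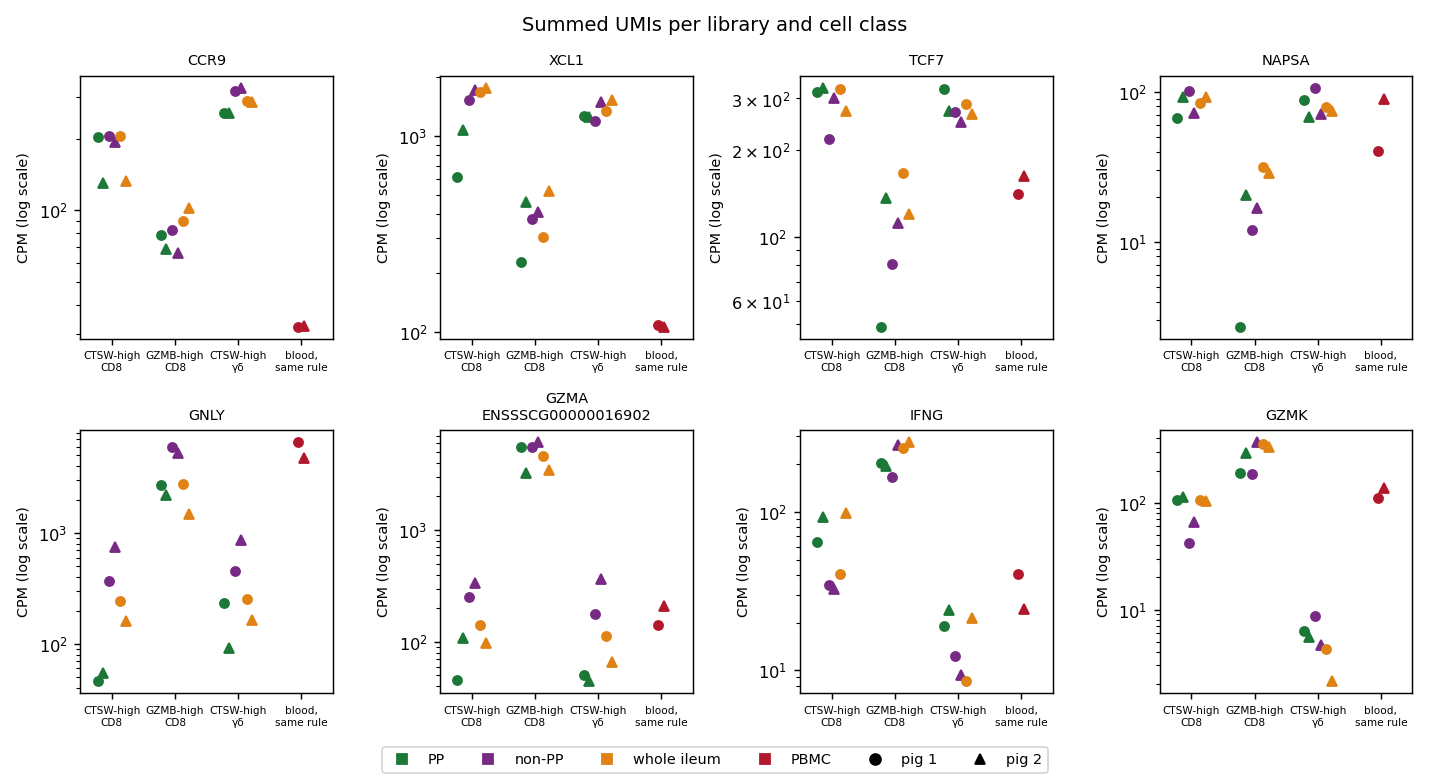
Level of 8 genes (CPM, log axis) in the summed UMIs of each library, for ileal CTSW-high CD8, GZMB-high CD8 and CTSW-high γδ T cells and for blood cells of the same rule as the first. Colours give the tissue and marker shapes the pig; CCR9, XCL1, TCF7 and NAPSA are higher and GNLY, GZMA, IFNG and GZMK lower in every library of CTSW-high CD8 than of GZMB-high CD8 T cells.

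GNLY and both copies of GZMA were lower in members. GNLY encodes granulysin, a pore-forming protein of cytotoxic granules. It had 45.9 and 54.4 CPM in PP, 370 and 751 CPM in non-PP and 242 and 162 CPM in whole ileum, against 1497 to 5989 CPM in GZMB-high cells (log2 fold change -3.59, SE 0.28, edgeR adjusted p = 5.77e-05). In B gate cells of the same libraries it had 68.8, 147, 345, 1167, 476 and 173 CPM. The levels of members and B gate cells overlapped. Granzyme A was counted on 2 near-identical genes on chromosome 16, between which reads could be split, so that each value is uncertain. The copy ENSSSCG00000016902 had 45.9 to 338 CPM in members and 3245 to 6094 CPM in GZMB-high cells (log2 fold change -4.71, SE 0.26). The copy ENSSSCG00000016903 had 33.6 to 98.4 and 1639 to 3542 CPM (log2 fold change -5.11, SE 0.23). B gate cells had 33.3 to 673 CPM of the former and 18.8 to 200 CPM of the latter.

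IFNG, the interferon-γ gene, had 32.8 to 98.2 CPM in members and 166 to 275 CPM in GZMB-high cells (log2 fold change -1.98, SE 0.21, edgeR adjusted p = 0.000711). GZMK, a granzyme of memory-like CD8 T cells, had 41.6 to 114 against 186 to 367 CPM (log2 fold change -1.76, SE 0.20, edgeR adjusted p = 0.000963, or 0.109 without whole ileum pig 1). The cytokine gene IL10 fell by 2.89 on the log2 scale (SE 0.51, edgeR adjusted p = 0.0452, or 0.559 without whole ileum pig 1), with 0 to 38.1 against 24.0 to 111 CPM. ENTPD1 encodes CD39, an ectoenzyme that degrades extracellular ATP on tissue-resident and exhausted T cells, and fell by 3.55 (SE 0.34) from a mean of 82.0 to one of 7.02 CPM. PRDM1 encodes Blimp-1, a repressor that drives effector differentiation, and fell by 3.49 (SE 0.37) from 50.2 to 3.99 CPM. None of these 5 genes overlapped between the groups, except IL10, which had 38.1 CPM in members of PP pig 2. Without pig 2 the edgeR adjusted p was 0.0722 for GZMK and 0.0629 for IL10.

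By list, 2 of 11 tested cytotoxic granule genes were lower and none higher (median log2 fold change -0.26, beside 0.00 over all tested genes), and GNLY and GZMK were those that passed. GZMA, whose symbol stands on 2 genes, was left out of the counts of this list here and below, and both of its copies were lower, as described above. With the pig block 5 were lower and 1 higher. PRF1, the perforin gene, had means of 127 and 259 CPM (log2 fold change -0.97, edgeR adjusted p = 0.138, or 2.16e-05 with the block), while SRGN, the granule proteoglycan gene, had means of 1184 and 1203 CPM. Of 12 chemokine and cytokine genes XCL1 was higher and IL10 and IFNG lower. Of 15 gut homing and retention genes CCR9 was higher and PRDM1 lower, and ITGAE had 282 to 442 CPM in members and 222 to 475 CPM in GZMB-high cells, which overlapped. None of 6 MHC class II genes passed (median log2 fold change 0.81). With the block 5 of the 6 were higher, among them SLA-DQB1, with means of 434 and 178 CPM (log2 fold change 1.34, edgeR adjusted p = 0.0782 without the block), and CD74, with means of 2400 and 1318 CPM (0.93, 0.192). For the T cell receptor complex 0 of 12 passed, 1 with the block.

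**Figure D3:**
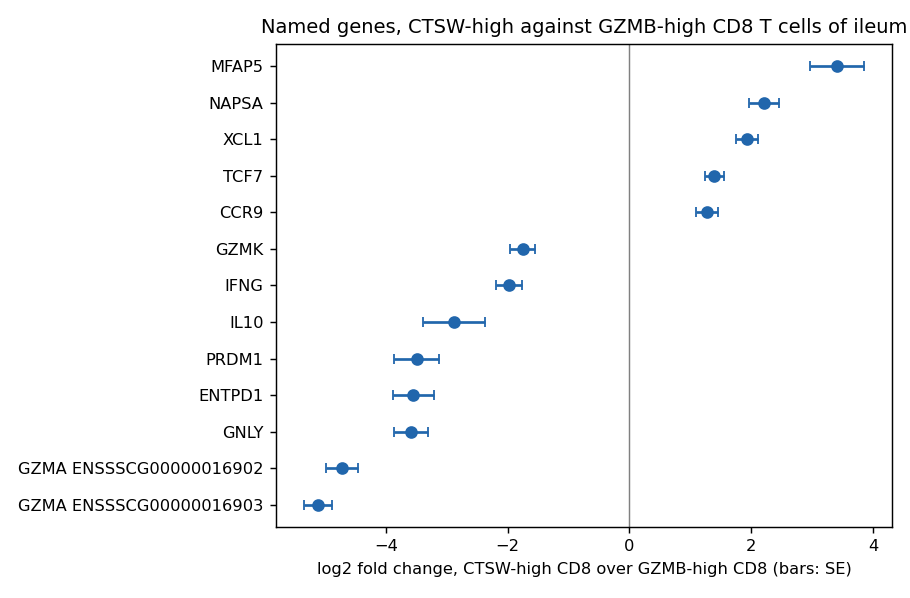
Log2 fold change between CTSW-high and GZMB-high CD8 T cells of ileum for genes named by rule, with points for the edgeR estimate and bars for its standard error (n = 2 pigs). Of the genes plotted, MFAP5 stands highest at 3.41 and GZMA copy ENSSSCG00000016903 lowest at -5.11.

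To see what members shared with another T cell lineage, they were compared with ileal γδ T cells that met the same conditions on CTSW and GZMB (1373 CTSW-high γδ T cells, with TRDC and without CD8B). A UMI of GZMB was found in 75.7% of members and 56.9% of these γδ T cells, or in 49.1% and 31.4% at equal depth. Of 7556 genes 31 (0.41%) were higher and 36 (0.476%) lower in members, or 129 (1.71%) and 147 (1.95%) with the pig block, in which the former 67 were included. This count rested much on 1 library: without whole ileum pig 1, 7 were higher and 4 lower, or 80 and 93 with the block. XCL1 and TCF7, which were higher in members than in GZMB-high CD8 T cells, overlapped here. XCL1 had 614 to 1762 CPM in members and 1197 to 1525 CPM in γδ T cells (log2 fold change 0.09, SE 0.18), and TCF7 217 to 327 and 250 to 323 CPM (0.08, SE 0.16). CCR9 had 131 to 206 CPM in members and 258 to 329 CPM in γδ T cells, without overlap, and its log2 fold change of -0.66 had an edgeR adjusted p of 0.156, or 0.00144 with the block. The members are the same in both comparisons, so these values are not independent of those above.

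CD8A and CD5 were higher in members than in γδ T cells. CD8A had 653 to 811 CPM against 173 to 246 CPM (log2 fold change 1.87, SE 0.17, edgeR adjusted p = 0.00018), and CD5, an inhibitor of T cell receptor signals, 213 to 459 against 73.2 to 119 CPM (1.92, SE 0.37, edgeR adjusted p = 0.0328, or 0.251 without whole ileum pig 1). Of 12 tested genes of the T cell receptor complex, CD8A, CD5 and the adaptor gene LAT were higher and CD247, the ζ chain, was lower (mean 1042 against 2273 CPM). Without whole ileum pig 1 the edgeR adjusted p was 0.0711 for LAT and 0.141 for CD247, and CD8A alone of the list passed. GZMK, IFNG and LAG3 were higher too. GZMK had 41.6 to 114 against 2.12 to 8.72 CPM (log2 fold change 3.87, SE 0.28, edgeR adjusted p = 2.41e-05), IFNG 32.8 to 98.2 against 8.49 to 23.9 CPM (1.91, SE 0.26) and the checkpoint receptor gene LAG3 46.2 to 87.1 against 10.6 to 31.8 CPM (1.77, SE 0.26, edgeR adjusted p = 0.00779, or 0.149 without whole ileum pig 1). Of 11 cytotoxic granule genes GZMK and GZMM were higher and none lower (median log2 fold change -0.23, beside 0.00 over all tested genes), and with the block 2 were higher and 3 lower. GZMK and IFNG were thus between the levels of both other ileal groups. Of 13 natural killer receptor genes, FCGR3A (CD16) and CD226 were higher, and KLRK1, the gene of the activating receptor NKG2D, was lower, with 147 to 641 against 954 to 1555 CPM (log2 fold change -1.94, SE 0.36, edgeR adjusted p = 0.0245, or 0.242 without whole ileum pig 1). Without the same library it was 0.0755 for FCGR3A and 0.164 for CD226, so that none of the 13 passed. Without pig 2 it was 0.208 for KLRK1 and 0.0798 for LAG3 (edgeR).

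Of 4 tested γδ lineage genes 3 were lower in members. RHEX, an adaptor of cytokine receptor signals, had no UMI in any member and 25.6 to 182 CPM in γδ T cells, at least 57.0-fold lower (floor of 3 counts over all members). BLK, a kinase of B and γδ T cells, had means of 0.756 and 45.6 CPM, and SAMSN1 means of 66.0 and 143 CPM (edgeR adjusted p = 0.0226, or 0.149 without whole ileum pig 1). ZNF683, which encodes the residency factor Hobit, had 0 to 11.6 against 38.3 to 87.7 CPM (log2 fold change -3.50, SE 0.50, edgeR adjusted p = 0.00598). The adaptor gene LAT2 had 43.5 to 141 against 280 to 371 CPM (-1.81, SE 0.24), and UBASH3B, a phosphatase gene that dampens T cell receptor signals, 5.78 to 32.7 against 44.5 to 66.5 CPM (-1.79, SE 0.28). These last 2 had edgeR adjusted p of 0.00446 and 0.0094, or 0.0741 and 0.136 without whole ileum pig 1, and that of UBASH3B was 0.342 at equal depth.

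Blood cells chosen by the same rule (134 and 29 cells) gave the comparison of tissue with circulation. Of 7556 genes 214 (2.83%) were higher and 195 (2.58%) lower in ileal members, or 419 (5.55%) and 368 (4.87%) with the pig block, and without whole ileum pig 1 they were 132 and 129. Ileal cells were released from tissue and enriched for leukocytes, and blood mononuclear cells were isolated by another procedure, so that the tissue and its handling cannot be told apart.

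Of 15 tested genes of gut homing and tissue retention 6 were higher and 3 lower in ileum, with or without whole ileum pig 1. ITGAE had 282 to 442 CPM in ileum and 24.2 and 32.5 CPM in blood (log2 fold change 3.69, SE 0.37, edgeR adjusted p = 0.000105). RGS1, a brake on chemokine receptor signals, had 675 to 1236 against 35.5 and 73.2 CPM (4.35, SE 0.28), and RGS2 rose by 4.92 (SE 0.54). CCR9 had 131 to 206 CPM in ileum against 32.3 and 32.5 CPM in blood (2.53, SE 0.27, edgeR adjusted p = 0.000182), and CD69, which opposes exit from tissue, 128 to 278 against 38.7 and 81.3 CPM (2.10, SE 0.29). ZNF683 went the other way, with 0 to 11.6 CPM in ileum and 149 and 40.7 CPM in blood (log2 fold change -4.46, SE 0.52).

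Of 13 tested genes of naive and recirculating cells 8 were lower and TCF7 was higher in ileum (median log2 fold change -1.95, beside 0.03 over all tested genes). Without whole ileum pig 1, 4 were lower and none higher, and the edgeR adjusted p of TCF7 went from 0.00713 to 0.0736. KLF2, a factor that maintains exit and lymph node homing receptors, had 3.28 to 48.9 CPM in ileum and 333 and 463 CPM in blood (log2 fold change -4.13, SE 0.29, edgeR adjusted p = 6.93e-06). S1PR5, an exit receptor gene, had no UMI in ileal members and 77.5 and 40.7 CPM in blood, at least 39.7-fold lower. CX3CR1, a receptor gene of circulating effector cells, had 1 UMI in ileum, in whole ileum pig 2, and 60 in blood, a ratio of 0.00741 (95% counting interval 0.000185 to 0.0429). The lymph node homing gene CCR7, named after its values were seen, had a log2 fold change of -1.95 (SE 0.30), with an edgeR adjusted p of 0.002, or 0.174 without whole ileum pig 1. KLRG1, a receptor gene of effector cells, had no UMI in ileum and 237 and 89.4 CPM in blood, at least 118-fold lower.

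Of 15 tested immediate early and heat shock genes, which cells induce on stimulation or stress, 10 were higher in ileum and none lower (median log2 fold change 2.49, or 2.44 with genes at 0 on one side set to their bound). The count was 7 without whole ileum pig 1. NR4A2 had 185 to 317 CPM in ileum against 6.46 and 0 CPM in blood (log2 fold change 5.56, SE 0.44, edgeR adjusted p = 2.3e-05), and ATF3 37.0 to 80.9 CPM against none in blood, at least 12.9-fold higher. ATF3 had 82.5 to 221 CPM in ileal B gate cells. FOS had 81.6 to 263 against 8.07 and 8.13 CPM (4.31, SE 0.55).

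Of 19 transcription factor genes 7 were lower and 2 higher in ileum, or 6 and 1 without whole ileum pig 1. Among the lower, TBX21, the T-bet gene, had 4.03 to 19.7 against 113 and 65.0 CPM (log2 fold change -3.34, SE 0.40, edgeR adjusted p = 0.000377) and ZEB2 fell by 3.21 (SE 0.56). GNLY had 45.9 to 751 against 6558 and 4781 CPM (-4.12, SE 0.29), but B gate cells of the same blood libraries had 551 and 673 CPM. Of 11 granule genes GNLY, FASLG and NKG7 were lower and SRGN and CTSC higher (edgeR adjusted p = 0.0348 for CTSC, or 0.0973 without whole ileum pig 1). Of the GZMA copies, outside this count, ENSSSCG00000016903 was lower (log2 fold change -3.80, SE 0.22, edgeR adjusted p = 3.45e-06), while ENSSSCG00000016902 had a log2 fold change of 0.18 (SE 0.26, edgeR adjusted p = 0.786). Of 17 actin and migration genes 5 were lower, 4 of them S100 genes, and 1 (EVL) was higher, or 4 and 1 without whole ileum pig 1. S100A4 had 18.3 to 110 against 488 and 610 CPM (-3.20, SE 0.34). Of 12 T cell receptor complex genes 9 were higher and none lower, 4 without whole ileum pig 1. The log2 fold change was 0.70 for CD3G (SE 0.15, edgeR adjusted p = 0.0162, or 0.0597 without whole ileum pig 1) and 1.62 for CD247 (SE 0.18). XCL1 had 108 and 106 CPM in blood, 3.74 below ileum on the log2 scale (SE 0.22).

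Some of the genes with the largest folds are known from other cells. FABP6 had no UMI in blood members and was at least 161-fold higher in ileum. It had 52.6 to 1297 CPM in ileal B gate cells. HBB, the β-globin gene of red cells, had 23341 and 301 CPM in blood members and 2.31 to 26.2 CPM in ileum (log2 fold change -10.06, SE 1.92), and PPBP, a platelet gene, 37.1 and 179 CPM in blood and no UMI in ileum, at least 33.7-fold lower. MFAP5 had no UMI in blood and was at least 15.3-fold higher in ileum. Without pig 1 the edgeR adjusted p was 0.174 for FABP6, 0.257 for MFAP5 and 0.401 for HBB, and without pig 2 it was 0.144 for FABP6, in fits where blood had 1 library, assumed to vary like the ileal ones. Without pig 1 the log2 fold change of HBB was -4.29. It was 0.0626 for FABP6 on sums per library and 0.0806 for MFAP5 at equal depth, and the DESeq2 adjusted p of PPBP was 0.335. GPR82, an orphan receptor gene, had 71.7 to 234 CPM in ileum and 2 UMIs in blood, a ratio of 47.6 (95% counting interval 13.0 to 396).

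**Figure D4:**
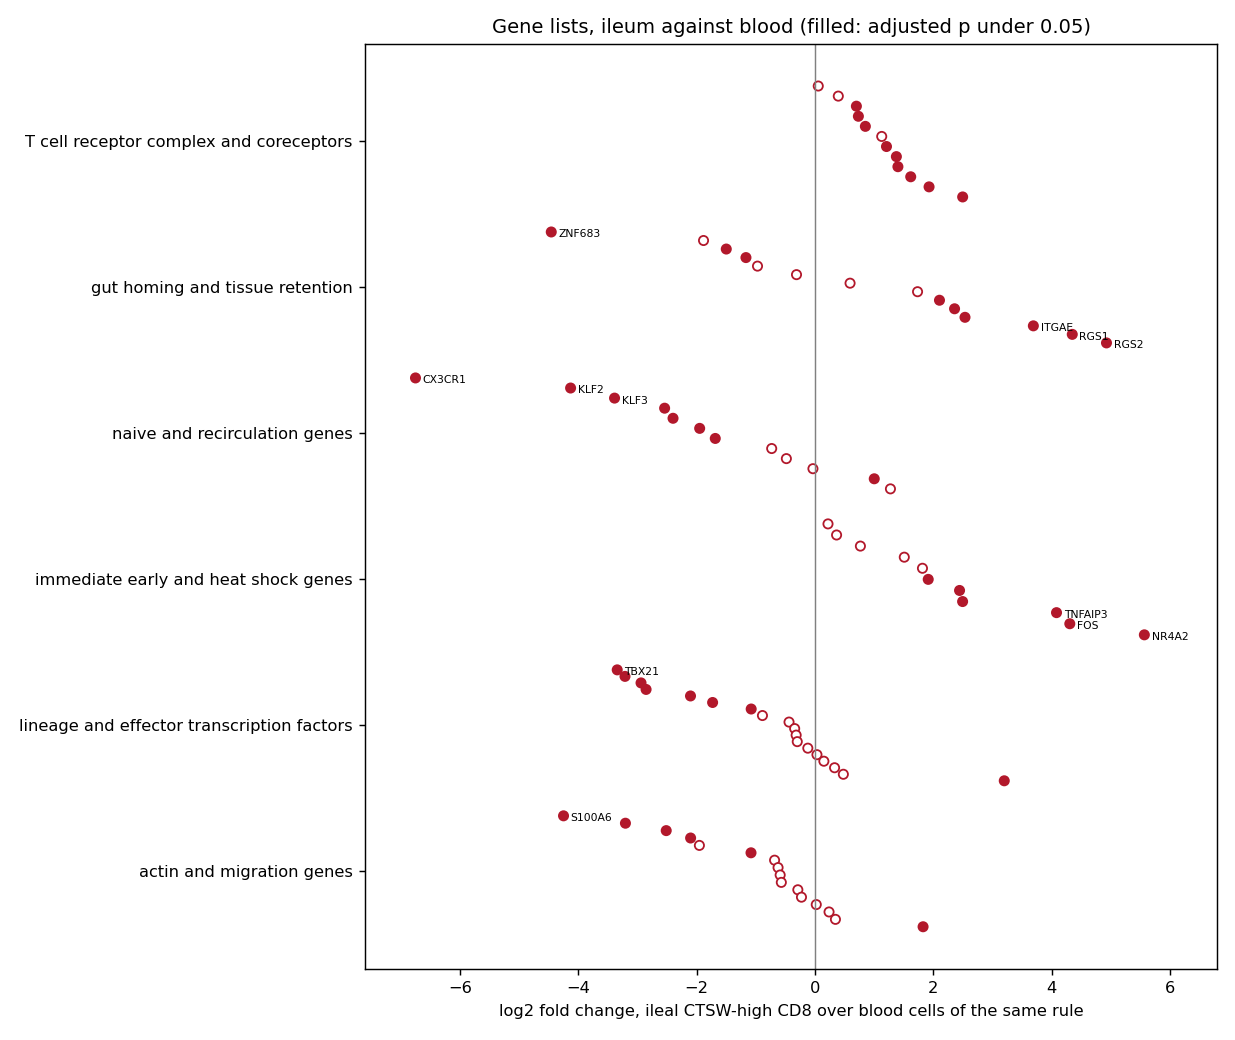
Log2 fold change of ileal CTSW-high CD8 T cells over blood cells of the same rule for tested genes of 6 lists, 1 point a gene, filled where the edgeR adjusted p was under 0.05; genes at 0 in ileum or in blood are left out. ITGAE (3.69) and RGS1 (4.35) lie at right, and KLF2 (-4.13) and TBX21 (-3.34) at left.

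Within the ileum, members of PP and non-PP were compared on sums per library (edgeR quasi-likelihood, 3190 genes, 6 libraries in 3 dissections, n = 2 per dissection). In PP 5 genes (0.157%) were higher and 2 (0.0627%) lower, or 7 (0.219%) and 8 (0.251%) with the pig block. Of those higher, 3 had an identifier and no symbol. GNLY was lower in PP by 3.45 on the log2 scale (SE 0.37, edgeR adjusted p = 0.000321), with 45.9 and 54.4 against 370 and 751 CPM. GZMA copy ENSSSCG00000016902 had 45.9 and 109 against 250 and 338 CPM (-2.00, SE 0.33, edgeR adjusted p = 0.0181). LTB, a gene of lymphoid tissue organisation, had 208 and 158 in PP against 46.3 and 32.8 CPM in non-PP (2.20, SE 0.32, edgeR adjusted p = 0.00579). JCHAIN, the joining chain of polymeric antibody, had 364 and 109 against 13.9 and 52.5 CPM (3.03, SE 0.54, edgeR adjusted p = 0.0272). The 2 dissections did not overlap in any of these 4 genes. Without PP pig 1, which left 1 PP library, assumed to vary like the others, the edgeR adjusted p was 0.261 for JCHAIN and 0.171 for GZMA, and without doublets it was 0.0875 for JCHAIN. The same genes lost their calls with DESeq2 (adjusted p = 0.871 and 0.0502), with at least 3 CTSW UMIs (edgeR, 0.105 and 0.0808) and without both whole ileum libraries (edgeR, 0.114 and 0.0805). GNLY and LTB kept theirs in these fits.

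The same 4 genes differed in the same direction in barcodes of 1 to 50 UMIs. There GNLY had 2139 and 2633 CPM in PP and 7690 and 14413 CPM in non-PP, GZMA copy ENSSSCG00000016902 956 and 1475 against 2895 and 6885 CPM, LTB 519 and 678 against 140 and 140 CPM, and JCHAIN 2408 and 4120 against 1026 and 1561 CPM. B gate cells of non-PP, 17 and 47 in number, had 345 and 1167 CPM of GNLY, and those of PP 68.8 and 147 CPM. How much of the difference in members came from free RNA was not tested.

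**Figure D5:**
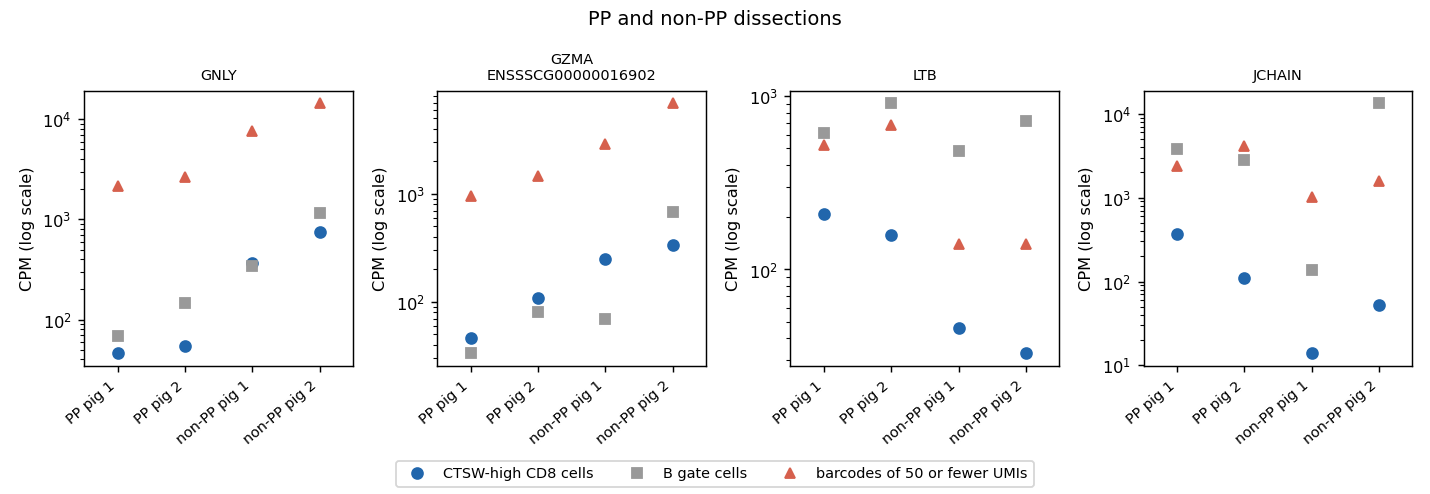
Level (CPM, log axis) of GNLY, GZMA copy ENSSSCG00000016902, LTB and JCHAIN in the 2 PP and 2 non-PP libraries, for CTSW-high CD8 T cells, B gate cells and barcodes of 50 or fewer UMIs. In members and in barcodes of few UMIs alike, GNLY and GZMA are lower and LTB and JCHAIN higher in PP.

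Without the block, none of the genes that were higher in members than in GZMB-high CD8 T cells passed between dissections with all libraries. XCL1 had 614 and 1072 CPM in PP and 1522 and 1715 CPM in non-PP, without overlap (log2 fold change -0.93, SE 0.24, edgeR adjusted p = 0.332, or 0.0163 with the block). CCR9 had 205 and 131 CPM in PP and 206 and 194 CPM in non-PP (log2 fold change -0.20, SE 0.27), and ITGAE 303 and 305 against 442 and 282 CPM (-0.25, SE 0.26). Other genes passed with the block and not without it when all libraries were used. FCER1G, an adaptor of innate-like receptors, had 91.7 and 32.7 CPM in PP and 516 and 161 CPM in non-PP (-2.34, SE 0.49, edgeR adjusted p = 0.0872, or 0.000153 with the block). KLRK1 had 183 and 147 against 641 and 305 CPM (-1.51, SE 0.35, edgeR adjusted p = 0.149, or 0.00167 with the block), and KIT 6.11 and 5.44 against 87.9 and 42.6 CPM (-3.42, SE 0.67, edgeR adjusted p = 0.0509, or 0.00807 with the block). CCR7 had 55.0 and 65.3 against 6.94 and 0 CPM (3.75, SE 0.86, edgeR adjusted p = 0.149, or 0.0352 with the block). When whole ileum pig 1, a library of neither group that shares the fit, was left out, the edgeR adjusted p with no block was 0.0306 for FCER1G, 0.0596 for KLRK1, 0.0248 for KIT and 0.0471 for CCR7. In barcodes of 1 to 50 UMIs FCER1G had 185 and 228 CPM in PP and 603 and 829 CPM in non-PP, KLRK1 209 and 249 against 638 and 848 CPM, and KIT 5.64 and 8.93 against 20.5 and 20.3 CPM. In the same barcodes XCL1 had 137 and 225 against 249 and 350 CPM, and CCR7 76.2 and 59.5 against 20.5 and 25.4 CPM. All 5 genes thus differed in the same direction there as in members, and the part of free RNA in their differences was not tested. Of 11 natural killer receptor genes tested none passed, 2 were lower with the block and 2 without whole ileum pig 1, and their median log2 fold change was -0.87, beside 0.00 over all tested genes.

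Members were not uniform in these genes. FCER1G was seen in 11.6% and 3.77% of members in PP, 42.2% and 21.6% in non-PP and 14.5% and 7.41% in whole ileum, with a share of 68.4% in CTSW-high γδ T cells and 4.18% in B gate cells. Split by FCER1G, a choice made after values were seen and so described without a test, the 91 members with a UMI had 1026 CPM of KLRK1, 166 CPM of KIT and 149 CPM of CD5. The 361 without one had 141, 6.09 and 405 CPM of these genes, in the same order. CD28, a costimulatory receptor gene, had no UMI in the former and 35.0 CPM in the latter, and CD8A had 730 and 741 CPM. The median depth was 3584 UMIs in the former and 3134 in the latter.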

How the data were processed

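The authors deposited raw 10x Genomics matrices of UMI counts (v2 3' chemistry), 1 for each of 8 libraries, made with Cell Ranger on Sscrofa11.1 and a modified Ensembl annotation. The 4 sequencing runs of a library were counted as 1 sample. The members and gene lists were chosen with earlier results of these data known.

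Barcodes with at least 1250 UMIs, at least 550 genes and at most 12.5% mitochondrial UMIs were kept. A neighbour-based doublet score marked cells but removed none from the main counts. It marked 0 to 2 members per ileal library. The score called 25.6% to 43.1% of simulated doublets in the ileal libraries, so doublets could remain among members. Counts were added up within each class of a pig, or within a library for the dissections, and tested with edgeR 4.0.16 in R 4.3.3 (quasi-likelihood test, TMM, filterByExpr), with genes called at an adjusted p under 0.05 and the rule's genes left out. One fit held all 4 classes. DESeq2 1.42.0 was an alternative. On simulated counts for the comparison with GZMB-high cells, 36.4% of 2-fold and 76.8% of 4-fold changes were recovered (7556 genes), and 33.3% and 93.5% between dissections (3190 genes). Python 3.11.15 and scipy 1.17.1 gave shares and permutation tests.

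Named genes were those with the largest fold changes among genes called, in the same direction in both pigs, with a symbol and at least 50 CPM in the higher group (8 each way against GZMB-high cells, 5 otherwise), with examples from each list. Other genes of the lists were named after their values were seen. Some items that the rule names are not reported here. CPM values are summed counts scaled to a common total. In the comparisons of classes the pig is the replicate, so p-values measure the spread between sums labelled as 2 animals. The library labelled whole ileum pig 1 was summed into pig 1 despite its Y-linked signal. Between dissections, p-values measure the spread between libraries within a dissection. By the labels, classes of a pig came from the same animal, and the pigs deviated together: pig 1 minus pig 2 correlated between classes at 0.309 to 0.724 over 2089 genes.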

Additional observations from a re-analysis of the deposited data

Results flagged for a closer look

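Signal of Y-linked genes went against the label in 1 library. In the library labelled whole ileum pig 1, 4 Y-linked genes made up 206.6 CPM of all kept cells, although the other libraries of that female-labelled pig had 0 to 0.224 CPM. Its CTSW-high CD8 T cells carried 190 CPM, against 191, 210 and 167 CPM in members of the pig 2 ileal libraries and 0 in members of PP and non-PP pig 1. Whether the library holds cells of pig 2 was not tested.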

How the results depend on the processing

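Each comparison has 2 pigs, members of a library number 53 to 116, and the calls depend on how the spread is estimated. The pig as a replicate block raised the counts higher and lower to 88 and 66 against GZMB-high CD8 T cells, 129 and 147 against γδ T cells, 419 and 368 against blood and 7 and 8 between dissections, and no gene called without the pairing lost its call. Without whole ileum pig 1 the counts were 6 and 7, 7 and 4, 132 and 129 and 7 and 5, and with the block added (chosen after seeing the data) 44 and 42, 80 and 93, 344 and 301 and 13 and 22. No low-count filter gave 33 and 62, 95 and 136, 415 and 304 and 11 and 15. Sums per library gave 51 and 33 against GZMB-high and 75 and 91 against γδ T cells, and the library as a block 189 and 107 and 185 and 183. That block was not run for blood. Thinned cells gave 16 and 18 against γδ T cells and 103 and 90 against blood. Leaving out a pig, on sums per library, gave 14 to 18 higher and 9 to 14 lower against GZMB-high, 13 to 65 and 14 to 81 against γδ T cells and 68 to 150 and 75 to 138 against blood. These fits take the spread from libraries labelled as 1 pig, with 1 blood library, and so are no test between animals. Leaving out 1 PP or non-PP library gave 3 to 16 and 4 to 19 between dissections, with the lone library assumed to vary like the others. There DESeq2 gave 2 and 1, a minimum of 3 CTSW UMIs 3 and 1, no whole ileum 2 and 1, and doublet removal 3 higher. The difference in shares of kept cells was -0.988 to -2.00 points without 1 library, and reversed to 12.4 with CD8 T cells as denominator. With the rule applied to thinned cells it was -0.466 points, from means of 0.287% in PP and 0.753% in non-PP. The cause of these moves was not tested. Of the named genes' results under alternatives, 31 were weaker, 449 kept their call and none reversed.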
